A study of Mus musculus with 23 samples.

Results

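The 10 genes described here encode receptors for neuropeptides: the somatostatin receptors Sstr1, Sstr2, Sstr3 and Sstr4, the neuropeptide Y (NPY) receptors Npy1r, Npy2r and Npy5r, the mu opioid receptor Oprm1, the nociceptin receptor Oprl1 and the cholecystokinin (CCK) receptor Cckbr. They were taken by name from a table of 45706 mouse gene IDs. All 10 were among the 18823 genes with enough reads to be tested. RNA of mouse hippocampus carrying a polyA tail had been sequenced from 3 neuronal populations, whose titles begin with CamK, Grik or SST. The labels describe CamK and Grik as excitatory pyramidal cells and SST as interneurons positive for somatostatin. Each population was sampled as SLM2 WT and as SLM2 cKO, a conditional knockout of the splicing regulator Slm2, whose gene symbol is Khdrbs3. There were 3 cKO and 4 WT libraries of CamK, and 4 of each genotype of both Grik and SST. The labels name no allele, driver of the deletion, isolation method, age or sex. The labels do not say whether libraries came from separate animals, so p-values measure the spread between these libraries, which may in part be technical.

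Neuropeptides are released from dense-core vesicles and act on G protein-coupled receptors. Somatostatin, NPY, opioid and nociceptin receptors couple to Gi/o proteins, which lower cyclic AMP, open GIRK potassium channels and reduce transmitter release. The CCK type B receptor couples mainly to Gq and phospholipase C beta. In the hippocampus somatostatin and NPY are made largely by interneurons, and their receptors are known for damping excitation of pyramidal cells and of their terminals.

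Reads counted in genes ran from 87612006 to 112993538 per library. Khdrbs3, the targeted gene, was counted at 249 to 294 counts per 1000000 reads (CPM) in the CamK libraries labelled cKO against 356 to 413 in WT, and at 82.6 to 106 against 123 to 139.8 in SST. In Grik the order went against the label, with 396 to 439 CPM in the libraries labelled cKO and 327 to 347 in WT. Which exons are deleted is not stated in the labels, so a gene total is an incomplete check, and the groups are called libraries labelled cKO; a single library is named by its label and number. Excitatory and inhibitory markers followed the labels of the populations: over WT libraries the summed level of 5 inhibitory markers was 4972 to 5578 CPM in SST, 43.3 to 145 in CamK and 64.4 to 87.6 in Grik, and that of 5 excitatory markers was 767 to 895, 5472 to 5969 and 6874 to 7911. The sum of 4 CA1 markers was 1118 to 1531 CPM for CamK WT libraries and 62.02 to 95.7 for Grik WT libraries, with SST WT between them at 392 to 406, and that of 4 CA3 markers 537 to 655, 1088 to 1222 and 107 to 126 in CamK, Grik and SST WT. The sum of 4 dentate granule markers was 105 to 275 CPM for CamK WT libraries and 456 to 497 for Grik WT libraries, and 20 non-neuronal markers summed to 151 to 237, 724 to 967 and 345 to 721 CPM in CamK, Grik and SST WT. None of the 57 markers was at 0 in all libraries.

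In GENCODE M21 on GRCm38 the members lie apart on 8 chromosomes, except for Npy5r (chr8:66679965-66688128, minus strand) and Npy1r (chr8:66697192-66706792, plus strand), which are transcribed away from each other. Sstr2 (chr11:113619342-113626028, plus strand) lies inside a gene of the opposite strand, Slc39a11, with no exon in common. Oprm1 (chr10:6758506-7038198, plus strand) shares 96 exonic bases with Ipcef1 on the opposite strand. The strand setting of the counting is not stated in the labels, which leaves reads of that stretch uncertain. Promoter windows in RefSeq (GRCm38.p6, 250 bases before each start) were found for 9 of the 10 members, in 14 windows. They were searched on both strands for 2 palindromic motifs, the cAMP response element TGACGTCA and the E-box CACGTG, which share no bases with each other here. Over 32851 mouse windows the first was present in 1.55% and the second in 6.02%. The cAMP response element was found in 1 member, Sstr2, and the E-box in 3, Npy5r, Cckbr and another window of Sstr3. The windows below are those with a match that lie outside annotated exons, with the outermost Oprm1 window, which has no match, because Oprm1 differed most between populations. They are written 5′ to 3′ on the strand of the gene, with motifs in capitals. Bases inside annotated exons were trimmed off, which leaves 216 bases for Npy5r and 163 for Oprm1, and motif positions count back from the RefSeq start, which for Npy5r lies beyond the end of the printed stretch.
Sstr2, chr11:113619077-113619326, plus strand, motif beginning 58 bases before the start: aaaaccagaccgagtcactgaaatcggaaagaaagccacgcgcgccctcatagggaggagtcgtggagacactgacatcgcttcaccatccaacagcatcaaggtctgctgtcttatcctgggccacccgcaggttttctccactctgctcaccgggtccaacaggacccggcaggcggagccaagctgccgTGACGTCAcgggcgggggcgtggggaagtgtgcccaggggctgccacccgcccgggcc
Npy5r, chr8:66688129-66688344, minus strand, motif beginning 40 bases before the start: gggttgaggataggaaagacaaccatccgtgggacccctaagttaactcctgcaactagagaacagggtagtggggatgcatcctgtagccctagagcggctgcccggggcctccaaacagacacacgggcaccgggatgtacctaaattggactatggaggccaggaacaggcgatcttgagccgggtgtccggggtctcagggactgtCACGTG
Cckbr, chr7:105425481-105425730, plus strand, motif beginning 106 bases before the start: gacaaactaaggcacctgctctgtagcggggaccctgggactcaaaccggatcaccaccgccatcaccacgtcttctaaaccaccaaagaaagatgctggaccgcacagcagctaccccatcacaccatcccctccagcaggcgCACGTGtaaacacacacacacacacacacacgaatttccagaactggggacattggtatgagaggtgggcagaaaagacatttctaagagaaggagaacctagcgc
Oprm1, chr10:6758343-6758505, plus strand: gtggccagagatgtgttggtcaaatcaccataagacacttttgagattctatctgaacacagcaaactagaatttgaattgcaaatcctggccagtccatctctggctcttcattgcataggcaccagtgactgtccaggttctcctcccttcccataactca
A match is a description of the letters only, and the data hold no measure of binding.

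**Figure D1:**
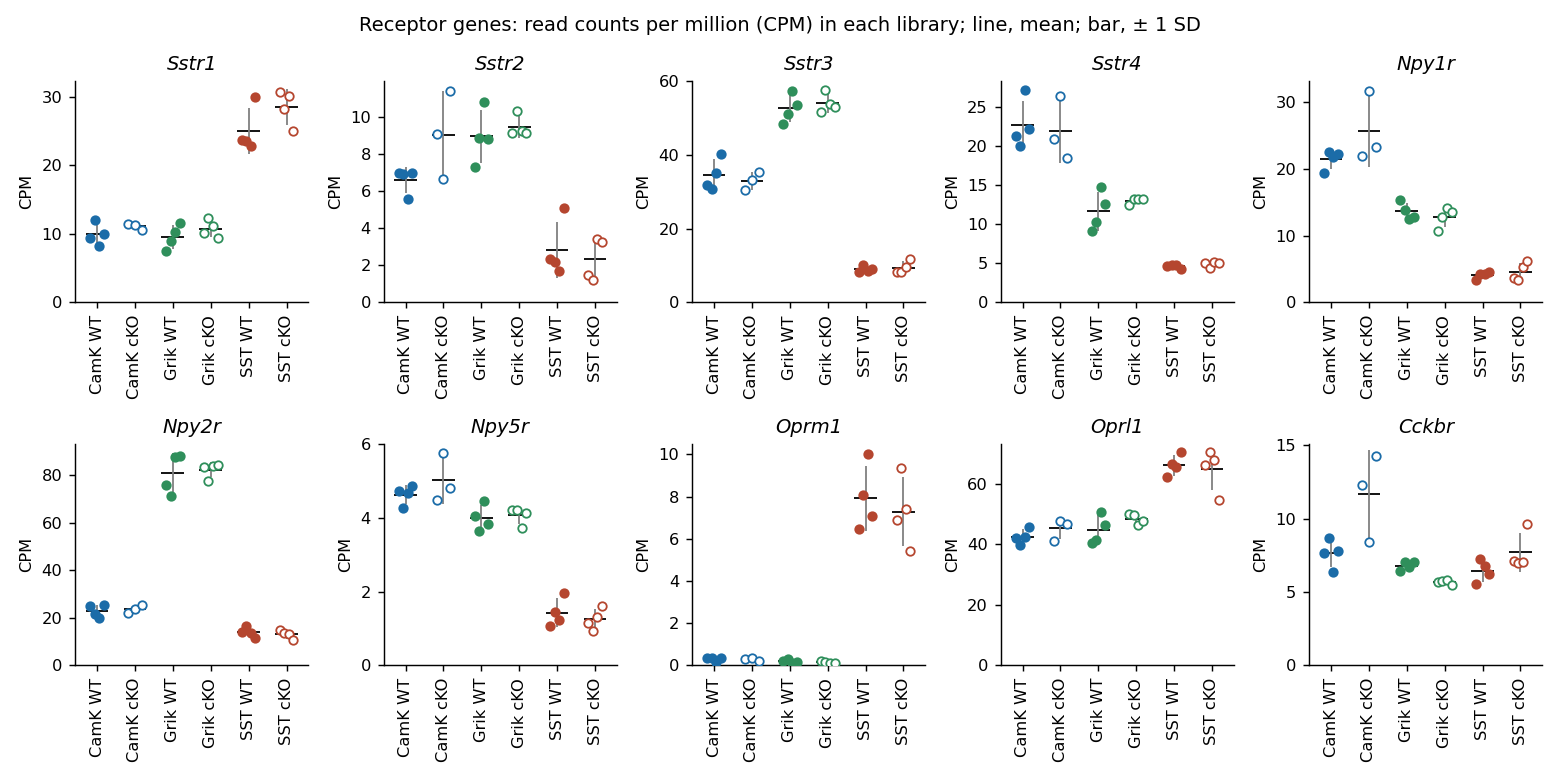
CPM (vertical axis from 0) of the 10 receptor genes in each of the 23 libraries (points; filled, WT; open, labelled cKO), by population and genotype, with the group mean (line) and ± 1 SD (bar). Oprm1 is near 0 in CamK and Grik and between 5.43 and 10.01 in SST, and Npy2r is highest in Grik.

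Most of the receptors differed between populations. Between CamK WT and SST WT, 9 of the 10 members differed, 6 higher in CamK and 3 lower, where 60.1% of all 18823 genes tested differed, 29.5% higher and 30.5% lower. Between Grik WT and SST WT the same 9 members differed in the same directions, against 57.3% of all genes, 28.1% higher and 29.2% lower. Between the 2 pyramidal populations 4 of 10 differed, 2 in each direction, against 42% of all genes, 20.9% higher and 21.1% lower. The median log2 difference of the 10 members was 0.98 for CamK over SST and 1.41 for Grik over SST, where the median of all genes was -0.021 and -0.026. A call means an adjusted p (Benjamini-Hochberg, all genes tested) under 0.05 in edgeR's quasi-likelihood test. In bulk libraries, fewer cells of a type with the RNA and less RNA per cell cannot be told apart.

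The somatostatin receptors divided into Sstr1, higher in the interneurons, and Sstr2, Sstr3 and Sstr4, higher in both pyramidal populations. Sstr1 (chr12:58211772-58214444, plus strand) binds somatostatin and cortistatin. In SST WT replicates 1, 2, 3 and 5 it was at 23.6, 23.6, 22.8 and 30.0 CPM, while the 4 CamK WT libraries had 9.33, 12.1, 8.28 and 9.9973 and the 4 Grik WT libraries 7.51, 9.02, 10.3 and 11.6. Every SST library lay above every pyramidal one. The log2 difference of CamK from SST was -1.33 (SE 0.13, adjusted p = 1.76e-09) and that of Grik from SST -1.38 (SE 0.13, adjusted p = 9.61e-10), 2.52-fold and 2.60-fold lower. CamK and Grik did not differ past the threshold (log2 difference 0.046, SE 0.13, adjusted p = 0.805, 95% interval -0.22 to 0.31). In the libraries labelled cKO the levels were 25.02 to 30.8 CPM in SST, 10.6 to 11.4 in CamK and 9.47 to 12.2 in Grik.

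Sstr3 (chr15:78537008-78544685, minus strand), a receptor found on neuronal primary cilia, was at 48.4, 51.2, 57.4 and 53.6 CPM in Grik WT replicates 3 to 6. It had 31.9, 30.7, 35.2 and 40.3 CPM in CamK WT replicates 2 to 5 and 8.28, 10.1, 8.54 and 9.03 in SST WT replicates 1, 2, 3 and 5. The 3 populations did not overlap, with Grik highest and SST lowest. Its level in Grik WT was 5.86-fold that in SST WT (log2 difference 2.55, SE 0.11, adjusted p = 3.38e-16), and in CamK WT 3.84-fold (1.94, SE 0.11, adjusted p = 4.78e-14). The log2 difference of CamK from Grik was -0.61 (SE 0.10, adjusted p = 2.63e-05). With the non-neuronal marker score as a covariate that last difference became -0.31 (adjusted p = 0.219). The summed non-neuronal markers were higher in all Grik than in all CamK libraries, and their part in it was not tested beyond that fit. In WT their CamK range overlapped neither that of Grik nor that of SST. The fit therefore cannot cleanly separate the score from the population in differences of CamK. It called 3959 of 18823 genes between CamK and Grik WT, against 7912 without the score.

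Sstr4 (chr2:148395344-148396767, plus strand), in the annotation a gene of a single exon, had the opposite order between the pyramidal populations. CamK WT replicates 2 to 5 had 21.4, 20.04, 27.2 and 22.2 CPM and Grik WT replicates 3 to 6 had 9.13, 10.3, 14.8 and 12.6, with no overlap. All 4 SST WT libraries were lower still, at 4.72, 4.78, 4.85 and 4.28 CPM. The log2 difference was 0.96 (SE 0.13, adjusted p = 1.15e-06) for CamK over Grik, 2.29 (SE 0.13, adjusted p = 1.72e-13) for CamK over SST and 1.33 (SE 0.13, adjusted p = 2.78e-09) for Grik over SST. Sstr3 and Sstr4 thus differed in opposite directions between CamK and Grik, and did so again in the libraries labelled cKO (-0.71 and 0.75).

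Sstr2, a receptor known for coupling to GIRK channels and whose promoter window holds the cAMP response element shown above, had the largest standard errors of the 4. It was at 7.0, 6.94, 5.59 and 6.98 CPM in the CamK WT libraries, 7.33, 8.89, 10.8 and 8.85 in Grik WT and 2.34, 2.20, 1.73 and 5.10 in SST WT. SST WT replicate 5 stood nearest to the pyramidal libraries, and the SST and pyramidal groups still did not overlap. The log2 difference was 1.22 (SE 0.31, adjusted p = 0.00167) for CamK over SST and 1.66 (SE 0.31, adjusted p = 9.05e-05) for Grik over SST, and the first became 2.22 (adjusted p = 0.00286) with the non-neuronal score as a covariate. CamK and Grik WT did not overlap either, but the difference of -0.44 (SE 0.30, adjusted p = 0.257) was not called. It was called when these populations were fitted alone (adjusted p = 0.0185), and it changed sign with the non-neuronal score as a covariate (0.47, adjusted p = 0.573). As that score differed between the populations, the values with it are not clean adjustments. In the SST libraries labelled cKO, replicates 3, 4, 5 and 7 had 1.5, 1.19, 3.45 and 3.28 CPM of Sstr2 beside 473, 293, 972 and 1133 CPM of summed non-neuronal markers. In SST WT replicates 1, 2, 3 and 5 that sum was 345, 721, 439 and 603 CPM. The libraries labelled cKO with the most Sstr2 were those with the most non-neuronal marker reads, whereas the WT library with the most Sstr2 had the second highest sum of its group, and the part of these cells in the Sstr2 level was not tested further.

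All 3 NPY receptors were higher in both pyramidal populations than in SST, and Npy2r and Npy1r stood in opposite order between the pyramidal populations. Npy2r (chr3:82538383-82548084, minus strand), known as a receptor of nerve terminals that lowers glutamate release, was at 76.02, 71.2, 87.7 and 88.3 CPM in Grik WT replicates 3 to 6. It was at 24.97, 21.5, 19.9 and 25.2 CPM in CamK WT and 14.1, 16.3, 13.5 and 11.3 in SST WT. Grik stood far above both, and the ranges of all 3 populations were separate. The level in Grik was 5.85-fold that in SST (log2 difference 2.55, SE 0.11, adjusted p = 8.15e-16), and CamK lay 3.53-fold below Grik (-1.82, SE 0.11, adjusted p = 2.02e-12). CamK exceeded SST by a smaller log2 difference of 0.73 (SE 0.11, adjusted p = 2.44e-06). The libraries labelled cKO gave 77.8 to 84.2 CPM in Grik, 22.1 to 25.2 in CamK and 10.6 to 14.9 in SST.

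Npy1r, the Y1 receptor, had the opposite order, with 19.4, 22.5, 21.8 and 22.3 CPM in the CamK WT libraries, 15.3, 13.9, 12.5 and 12.8 in Grik WT and 3.39, 4.25, 4.32 and 4.52 in SST WT. No 2 populations overlapped. The log2 difference was 0.66 (SE 0.15, adjusted p = 0.000945) for CamK over Grik, 2.38 (SE 0.16, adjusted p = 2.45e-12) for CamK over SST and 1.73 (SE 0.16, adjusted p = 7.04e-10) for Grik over SST. With the non-neuronal score as a covariate CamK stood farther above Grik (1.33, adjusted p = 8.75e-05) and SST (3.14, adjusted p = 2.89e-10). The score differed between these populations, so neither value is a clean adjustment. Its divergent neighbour Npy5r, which encodes the Y5 receptor, was counted at 4.73, 4.26, 4.68 and 4.87 CPM in the CamK WT libraries, 4.04, 3.64, 4.46 and 3.84 in Grik WT and 1.05, 1.43, 1.24 and 1.96 in SST WT. Both neighbours were lowest in SST, and only for Npy1r was a difference between the pyramidal populations called. For Npy5r the log2 difference was 1.70 (SE 0.17, adjusted p = 3.82e-09) for CamK over SST, 1.49 (SE 0.17, adjusted p = 3.63e-08) for Grik over SST and 0.21 (SE 0.16, adjusted p = 0.309) for CamK over Grik (95% interval -0.13 to 0.56).

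The mu opioid receptor Oprm1, the target of morphine, showed the largest population difference of the 10 genes. SST WT replicates 1, 2, 3 and 5 had 6.48, 8.08, 10.01 and 7.09 CPM, from 704 to 986 reads. The CamK WT libraries had 0.341, 0.354, 0.169 and 0.317 CPM and the Grik WT libraries 0.195, 0.301, 0.0916 and 0.164, from 15 to 32 and 8 to 26 reads. The level was 26.6-fold lower in CamK than in SST (log2 difference -4.73, SE 0.27, adjusted p = 1.63e-13) and 41.8-fold lower in Grik (-5.39, SE 0.29, adjusted p = 3.26e-14). The Oprm1 mean was 3.73% of the SST mean in CamK and 2.37% in Grik, where 5 inhibitory markers stood at 1.23 to 2.45% and 0.693 to 4.30% of theirs. The part of interneuron RNA in the few pyramidal Oprm1 reads was not tested. Between CamK and Grik the log2 difference in WT was 0.65 (SE 0.31, adjusted p = 0.0949), and in the libraries labelled cKO 1.11 (SE 0.35, adjusted p = 0.0141). The WT difference passed the threshold without CamK WT replicate 4 (0.84, adjusted p = 0.0337) or without Grik WT replicate 4 (0.98, adjusted p = 0.0207) and fell to 0.43 (adjusted p = 0.293) without Grik WT replicate 5, and the other did not pass it without CamK cKO replicate 5 (0.94, adjusted p = 0.0738), with limma-voom (adjusted p = 0.0576) or with the non-neuronal covariate (adjusted p = 0.132).

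The nociceptin receptor Oprl1 (chr2:181715016-181720985, plus strand), an opioid-related receptor with little affinity for classical opioids, had the smallest called differences from SST. It was at 62.2, 66.4, 65.5 and 70.4 CPM in SST WT, 42.2, 39.7, 42.5 and 45.7 in CamK WT and 40.4, 41.6, 50.8 and 46.5 in Grik WT. All SST WT libraries were above all pyramidal WT libraries. The log2 difference was -0.64 (SE 0.081, adjusted p = 2.72e-07) for CamK and -0.56 (SE 0.081, adjusted p = 1.89e-06) for Grik against SST, and -0.075 (SE 0.081, adjusted p = 0.491) between CamK and Grik (95% interval -0.25 to 0.096).

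The CCK type B receptor Cckbr (chr7:105425731-105470898, plus strand) was the 1 member for which no WT population difference was called. CamK WT replicates 2 to 5 had 7.63, 8.66, 6.38 and 7.80 CPM, Grik WT replicates 3 to 6 had 6.44, 7.07, 6.66 and 7.02 and SST WT replicates 1, 2, 3 and 5 had 5.54, 7.26, 6.77 and 6.19. The 3 ranges overlapped. The log2 difference was 0.24 (SE 0.14, adjusted p = 0.13) for CamK over SST (95% interval -0.046 to 0.53), 0.078 (SE 0.14, adjusted p = 0.654) for Grik over SST and 0.16 (SE 0.14, adjusted p = 0.357) for CamK over Grik. Without CamK WT replicate 4, the lowest of its group, the first became 0.33 (adjusted p = 0.0494).

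**Figure D2:**
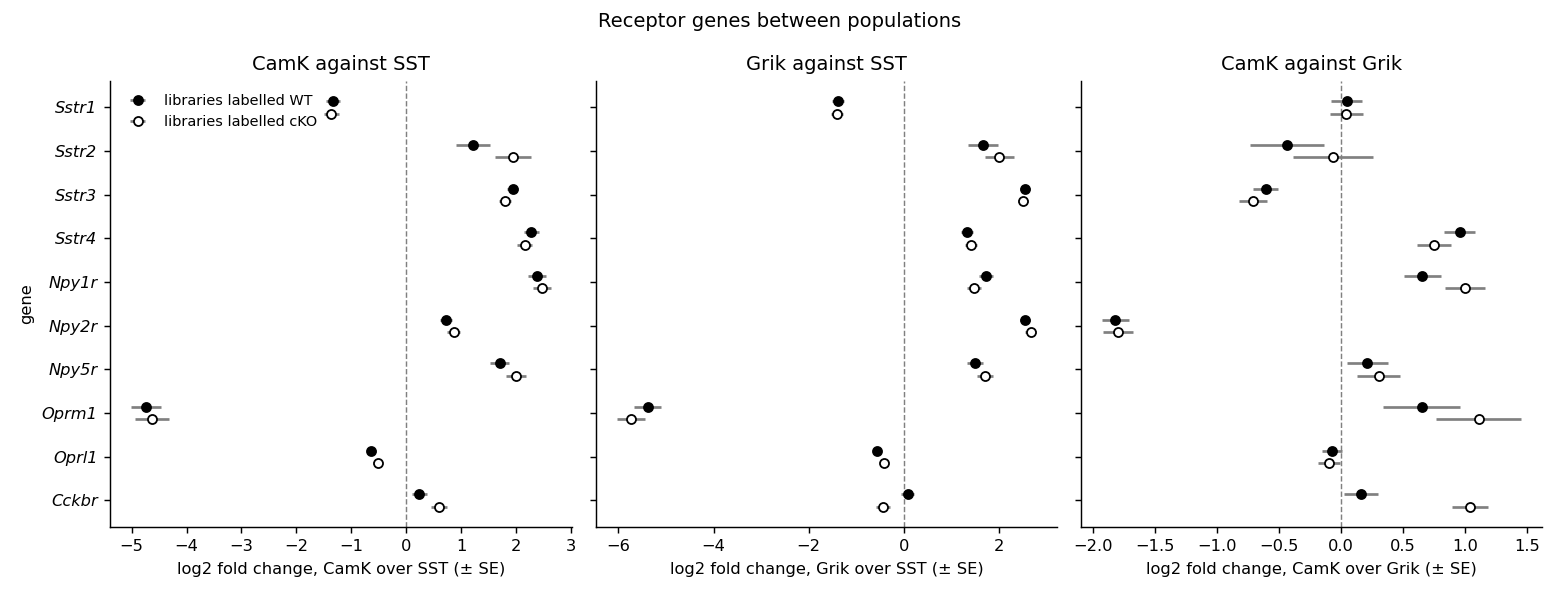
Log2 fold change (horizontal axis, ± SE) of each receptor gene between populations, in WT libraries (filled) and in libraries labelled cKO (open), with 0 dashed. Oprm1 lies farthest below 0 in both comparisons with SST, and Sstr3 and Npy2r lie below 0 and Sstr4 and Npy1r above 0 between CamK and Grik in both sets of libraries.

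The libraries labelled cKO have group means of their own but share the estimate of the spread with the WT libraries, since all 23 were fitted together. They gave the same calls for every member called in WT: 4 of 4 between CamK and Grik, 9 of 9 between CamK and SST and 9 of 9 between Grik and SST. They added 2 calls in CamK against Grik (6 of 10, against 35.7% of all genes), 1 in CamK against SST (10 of 10, against 56.4%) and 1 in Grik against SST (10 of 10, against 57.9%). Apart from Oprm1, the added calls were all of Cckbr. Its log2 difference in the libraries labelled cKO was 1.04 (SE 0.15, adjusted p = 3.36e-06) for CamK over Grik, 0.60 (SE 0.15, adjusted p = 0.00108) for CamK over SST and -0.44 (SE 0.14, adjusted p = 0.00831) for Grik over SST. The last was no longer called without SST cKO replicate 7 (-0.31, adjusted p = 0.0551) or in the fit with a replicate block (-0.32, adjusted p = 0.0746).

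Per 1000 exon bases, the scale on which genes can be compared, the leading receptor differed between the populations. The length is that of all annotated exons of a gene merged, 8037 bases for Oprm1 and 1424 for Sstr4, and the order depends on it. By CPM alone Oprl1 (42.5) and Sstr3 (34.5) stood above Sstr4 (22.7) in CamK WT, and Npy2r (22.9) was about level with it. In SST WT Oprm1 (7.92) stood above Cckbr (6.44) and Sstr4 (4.66) by CPM. In CamK WT Sstr4 was first at 15.95 ± 2.21 CPM per 1000 bases (SD, n = 4), followed by Oprl1 at 11.3 ± 0.658 and Sstr3 at 7.99 ± 0.997. The order went on with Npy2r, Npy1r and Sstr1, each overlapping its neighbours' library ranges from Sstr3 down to Sstr1, and then Sstr2, Cckbr and Npy5r, of which Sstr2 and Cckbr overlapped. In Grik WT Npy2r was first at 23.9 ± 2.53, above Sstr3 at 12.2 ± 0.877 and Oprl1 at 11.9 ± 1.28, which overlapped. Sstr4, Sstr1, Sstr2, Npy1r, Cckbr and Npy5r followed, with overlap from Sstr1 through Sstr2 to Npy1r. In SST WT Oprl1 was first at 17.6 ± 0.905 and Sstr1 second at 12.2 ± 1.63, both apart from each other and from Npy2r at 4.08 ± 0.609. Npy2r and Sstr4 overlapped, as did each neighbouring pair from Cckbr through Sstr3, Sstr2 and Npy1r to Oprm1 at 0.985 ± 0.192, and Npy5r was last at 0.557 ± 0.154. Oprm1 was last in both pyramidal populations, at 0.0368 ± 0.0106 in CamK and 0.0234 ± 0.0108 in Grik.

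**Figure D3:**
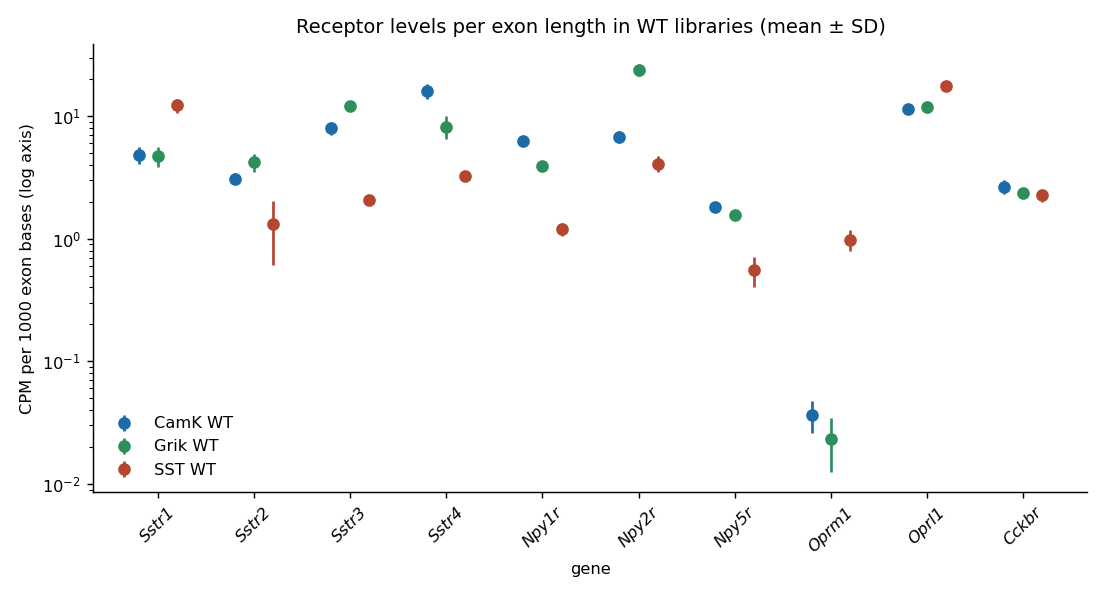
Level of each receptor gene in WT libraries as CPM per 1000 exon bases (log axis, mean ± SD, 4 libraries per population). Sstr4 leads in CamK, Npy2r in Grik and Oprl1 in SST, and Oprm1 in CamK and Grik lies more than an order of magnitude below any other point.

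The 6 members called higher in both pyramidal populations remained measurable in SST libraries. The SST WT mean was 42.9% of the CamK WT mean for Sstr2, 26.0% for Sstr3, 20.5% for Sstr4, 19.2% for Npy1r, 60.3% for Npy2r and 30.7% for Npy5r. The same share for 5 excitatory markers ran from 4.82 to 17.9%, with a median of 7.98%, and all 6 members lay above these 5 markers. Against Grik WT the members stood at 31.6, 17.1, 39.8, 30.2, 17.1 and 35.6% in the same order. Cckbr, whose differences from SST were not called, stood at 84.6 and 94.8%. These shares are descriptions over means of 4 libraries, and a share above that of the markers in CamK was not tested. Median sums of CA1 markers were 401 CPM in SST WT and 1238 in CamK WT, and those of dentate granule markers 69.4 and 193. Both thus stood nearer to CamK than the 5 excitatory markers did. The CA3 sum, at 110 and 606 CPM, stood near the highest of these 5 markers, and the CA2 sum, at 21.6 and 215 CPM, within their range.

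**Figure D4:**
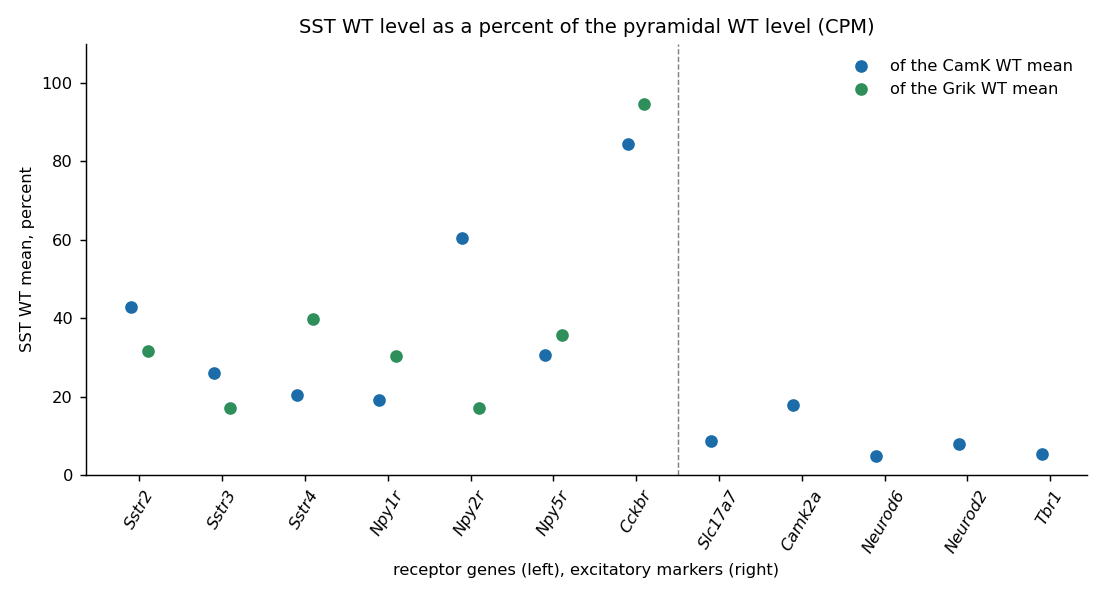
Mean CPM in SST WT libraries as a percent of the CamK WT mean (blue) and of the Grik WT mean (green), for the receptor genes with higher pyramidal means (left of the dashed line), and as a percent of the CamK WT mean for 5 excitatory markers (right). Against CamK the receptors lie at 19.2% or more and the markers at 17.9% or less.

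No member was called between libraries labelled cKO and WT in CamK, Grik or SST (0 of 10 each in edgeR), where 0.0106% of all genes tested were called in each population. At an unadjusted p under 0.05 there was 1 member in CamK, 0 in Grik and 0 in SST, against 7.05, 4.88 and 5.85% of all genes. DESeq2 called 1, 0 and 0 members, where it called 13, 14 and 11 of 29214 genes, and limma-voom 0 in each, where it called 6, 37 and 0 of 18823. The members' log2 differences had a median of 0.10 in CamK (range -0.066 to 0.62, 7 of 10 above 0), 0.033 in Grik (range -0.47 to 0.16, 7 above 0) and 0.023 in SST (range -0.27 to 0.26, 5 above 0). The medians of all genes were -0.0014, 0.0035 and 0.023. Directions in Grik refer to libraries whose Khdrbs3 total goes against the label.

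**Figure D5:**
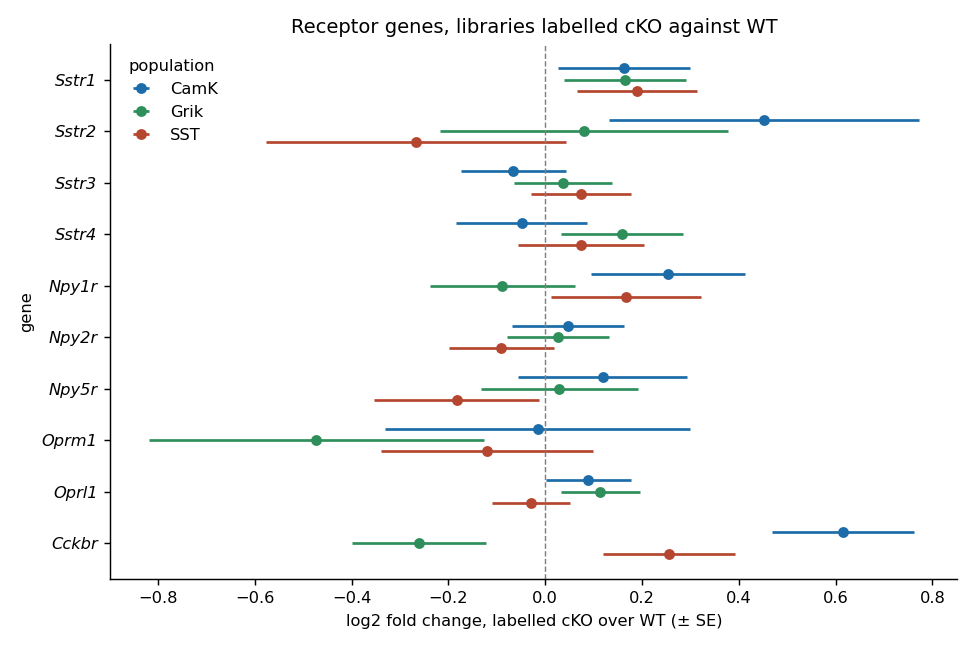
Log2 fold change (horizontal axis, ± SE) of each receptor gene in libraries labelled cKO over WT, by population, with 0 dashed. Cckbr has the largest positive value, 0.62 in CamK, and Oprm1 in Grik, which rests on 8 to 26 reads per library, the most negative, -0.47, which ran from -0.71 to -0.15 with 1 library left out.

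How narrowly these differences were bounded varied with the member. For Oprl1 the 95% interval of the log2 difference was -0.20 to 0.14 for SST, -0.057 to 0.29 for Grik and -0.096 to 0.27 for CamK. For Npy2r it was -0.32 to 0.14, -0.20 to 0.25 and -0.20 to 0.29, and for Sstr3 -0.14 to 0.29, -0.17 to 0.25 and -0.30 to 0.16. These 3 genes had the most reads by their median over libraries. The widest were those of Sstr2, -0.92 to 0.39 for SST, -0.55 to 0.71 for Grik and -0.22 to 1.13 for CamK, and of Oprm1, -0.58 to 0.34, -1.20 to 0.26 and -0.68 to 0.65. The remaining log2 differences in CamK, Grik and SST were 0.16, 0.16 and 0.19 for Sstr1, -0.048, 0.16 and 0.074 for Sstr4, 0.25, -0.089 and 0.17 for Npy1r, and 0.12, 0.029 and -0.18 for Npy5r.

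Cckbr had the smallest p of the members in CamK. Its levels in CamK cKO replicates 4, 5 and 6 were 12.3, 8.43 and 14.3 CPM, against 7.63, 8.66, 6.38 and 7.80 in WT replicates 2 to 5. Replicates 4 and 6 lay above all WT libraries, and replicate 5 just below the highest of them. The log2 difference was 0.62 (SE 0.15, adjusted p = 0.4), with an unadjusted p of 0.000306. DESeq2 put it past the threshold (0.62, adjusted p = 0.0483), as did leaving out CamK cKO replicate 5 (0.80, adjusted p = 0.0352), while the adjusted p ran up to 0.801 over the other alternatives. Sums of cell type markers differed among these libraries. In CamK cKO replicates 4, 5 and 6 the 4 dentate granule markers summed to 215, 110 and 279 CPM, the 4 CA1 markers to 1181, 1668 and 1006 CPM, and the 5 excitatory markers to 5846, 6171 and 5777. In CamK WT replicates 2 to 5 the dentate sum was 275, 218, 105 and 167 CPM and the CA1 sum 1118, 1138, 1531 and 1338. The library lowest in Cckbr within each genotype was also lowest in the dentate sum and highest in the CA1 sum. The WT library highest in Cckbr, replicate 3, was not the highest in the dentate sum. The dentate and CA1 sums overlapped between the genotypes, whereas some other sums were higher in the libraries labelled cKO with little overlap. The 20 non-neuronal markers summed to 256, 303 and 234 CPM in CamK cKO replicates 4, 5 and 6 and to 237, 231, 151 and 191 in WT replicates 2 to 5. The 4 CA3 markers summed to 642, 690 and 656 CPM and to 614, 537, 598 and 655. Replicate 5, the lowest in Cckbr of those labelled cKO, was the highest of the 7 in both. The 6 markers of other interneuron classes summed to 115, 125 and 128 CPM and to 108, 118, 101 and 111. In that sum CamK cKO replicate 6, the highest in Cckbr, was the highest of the 7, while cKO replicate 5 stood above replicate 4. The WT libraries had the same order in it as in Cckbr. The 5 inhibitory markers summed to 73.0, 97.0 and 135 CPM in CamK cKO replicates 4, 5 and 6. In WT replicates 2 to 5 they summed to 63.2, 143, 43.3 and 145 CPM. WT replicates 3 and 5 thus stood above all CamK libraries labelled cKO, of which replicate 4 was the lowest. With the non-neuronal score as a covariate the Cckbr difference was 0.55 (adjusted p = 0.36), and the part of the other markers in it was not tested.

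In Grik the 4 libraries labelled cKO had 5.69, 5.72, 5.78 and 5.50 CPM of Cckbr in replicates 1 to 4, all below the 4 WT libraries at 6.44, 7.07, 6.66 and 7.02. Its log2 difference was -0.26 (SE 0.14, adjusted p = 0.992). This was the 1 member in Grik whose genotype groups did not overlap, against 4.59% of all genes, and there were 0 such members in CamK and 0 in SST, against 6.75% and 2.7%. In SST the libraries labelled cKO had 7.07, 7.0, 7.02 and 9.65 CPM in replicates 3, 4, 5 and 7, against 5.54, 7.26, 6.77 and 6.19 in WT, a log2 difference of 0.26 (SE 0.14, adjusted p = 0.839). Replicate 7 stood above the rest, and had the highest sum of markers of other interneuron classes (382 CPM) of the SST libraries. It also had the highest summed non-neuronal (1133 CPM) and excitatory (1051 CPM) markers and the lowest inhibitory ones (3955 CPM) of the SST libraries, and without it the difference was 0.13 (adjusted p = 1.0).

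The difference of the genotype effects between populations was not called for any member by edgeR (0 of 10 in each of 3 comparisons, against 0.00531, 0 and 0.0106% of all genes for CamK against Grik, CamK against SST and Grik against SST). At an unadjusted p under 0.05 the counts were 1, 0 and 1, each of them Cckbr, against 6.5, 7.85 and 3.86% of all genes, and neither DESeq2 nor limma-voom called one. For Cckbr the effect in CamK exceeded that in Grik by 0.88 (SE 0.20, adjusted p = 0.474), and the effect in Grik minus that in SST was -0.52 (SE 0.19, adjusted p = 1). Without CamK cKO replicate 5 the first was 1.06 (adjusted p = 0.0498).

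Of 9 genes for peptides that act on these receptors 8 were tested. Between Grik and SST WT 6 were called lower and 1 higher in Grik, where 29.2% of all genes were lower and 28.1% higher. Between CamK and SST WT 4 were lower and 1 higher in CamK, against 30.5% and 29.5% of all genes. Sst was at 159 to 1720.3 CPM in SST WT, with replicate 2 the lowest, against a mean of 5.59 ± 1.97 in CamK and 8.13 ± 1.65 in Grik (SD, n = 4). Cort, which encodes cortistatin, another somatostatin receptor ligand, had 70.3 ± 22.02 CPM in SST WT against 0.279 ± 0.117 and 0.0926 ± 0.0550. Npy had 611 ± 117 CPM against 0.813 ± 0.244 and 2.07 ± 0.641, and Pnoc, the nociceptin precursor, 44.4 ± 8.57 against 1.01 ± 0.894 and 0.924 ± 0.408. SST libraries thus carried the most RNA of the ligands Sst, Cort, Npy and Pnoc, and also of 3 of the 10 receptors, Sstr1, Oprm1 and Oprl1. Cck went the other way, at 15.3 ± 2.45 CPM in SST, 365 ± 55.6 in CamK and 299 ± 47.4 in Grik. The opioid peptide genes had 28.8, 6.19 and 20.3 CPM for Penk (enkephalins), 8.39, 5.45 and 6.31 for Pdyn (dynorphins) and 0.782, 0.395 and 0.844 for Pomc in CamK, Grik and SST WT. Penk was called higher in CamK than in Grik (2.22, SE 0.28, adjusted p = 1.67e-06), and for Pdyn no WT population difference was called. Pyy had at most 1 read in a library and was not tested.

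Of 6 further receptors of the same families 4 were tested, and all 4 were called lower in both pyramidal populations than in SST, where 30.5% (CamK) and 29.2% (Grik) of all genes were lower. Oprd1, the delta opioid receptor, was at 62.7 ± 9.70 CPM in SST WT, 4.67 ± 0.521 in CamK and 0.986 ± 0.106 in Grik, and Oprk1, the kappa opioid receptor, at 8.44 ± 1.19, 0.346 ± 0.125 and 0.184 ± 0.159. The 3 classical opioid receptor genes Oprm1, Oprd1 and Oprk1 were thus all higher in SST than in either pyramidal population. Sstr5 had 0.481 CPM in SST and 0.143 and 0.0376 in CamK and Grik. Npy4r had 13 to 36 reads in the SST WT libraries and 0 in every CamK and Grik library. Npy6r and Cckar were not tested.

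Among the genes that carry the receptors' signal, all 4 GIRK subunits were higher in CamK than in SST WT, and 2 were higher and 1 lower in Grik than in SST WT. For these short lists the same shares of all genes apply, 29.5% higher and 30.5% lower in CamK and 28.1% and 29.2% in Grik, and no list was tested against them. Kcnj6 had means of 38.4 ± 3.0 CPM for CamK, 45.9 ± 2.98 for Grik and 11.2 ± 1.29 for SST (SD, n = 4), and Kcnj9 of 108 ± 10.1, 27.8 ± 4.10 and 37.8 ± 2.74. Kcnj5 was low throughout, with its highest WT mean, 0.671 CPM, in CamK. Of 8 RGS genes, whose proteins speed the turning off of G proteins, 5 were lower and 3 higher in each pyramidal population than in SST. They include Rgs14, at 199.7 ± 30.3 CPM in CamK, 86.01 ± 6.65 in Grik and 13.2 ± 1.47 in SST, Rgs10, at 5.31 ± 0.775, 3.74 ± 0.662 and 77.5 ± 10.2, and Rgs17, at 84.05 ± 11.2, 58.98 ± 9.56 and 268 ± 36.2. Of 4 phospholipase C beta genes, the effectors of Gq, Plcb4 had 19.1 ± 0.870 CPM in CamK, 5.03 ± 0.555 in Grik and 95.6 ± 7.09 in SST, the largest difference of that list. Between CamK and SST 2 of the 4 were higher and 2 lower in CamK.

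Of 7 alpha subunits 4 were higher and 1 lower in CamK than in SST WT, and 5 higher and 1 lower in Grik. Those named by the size of their largest difference between WT populations are Gnaq (log2 difference 0.86, SE 0.081, adjusted p = 1.46e-09 for Grik over SST), Gnai3 (-0.65, SE 0.095, adjusted p = 5.42e-06 for CamK over Grik) and Gnao1 (0.63, SE 0.069, adjusted p = 2.1e-08 for Grik over SST). Of 9 beta and gamma subunits 4 were higher and 4 lower in CamK than in SST, among them Gng7 (1.68, SE 0.077, adjusted p = 2.49e-15) and Gng13 (1.02, SE 0.16, adjusted p = 4.93e-06), and in Grik Gng4 was lower than in SST (-1.85, SE 0.12, adjusted p = 3.39e-12). Of 7 receptor kinases and arrestins tested, whose products end signalling, 3 were higher and 3 lower in CamK than in SST. Grk3 (-1.73, SE 0.10, adjusted p = 1.94e-13) and Arrb1 (-1.24, SE 0.073, adjusted p = 2.37e-13) were lower in CamK, and Grk5 was lower in Grik (-1.46, SE 0.16, adjusted p = 2.4e-08). Over all these lists of ligands, other receptors and signalling genes, 51 were tested, of which 21 were called higher and 23 lower in CamK than in SST WT, 16 higher and 27 lower in Grik than in SST WT, and 22 higher and 11 lower in CamK than in Grik WT, where 20.9% of all genes were higher and 21.1% lower. None was called between libraries labelled cKO and WT in any population by edgeR, DESeq2 or limma-voom, and 6, 2 and 6 of the 51 had an unadjusted p under 0.05 in CamK, Grik and SST, against 7.05, 4.88 and 5.85% of all genes. For the difference of that effect between CamK and SST, DESeq2 called 1 gene of these lists, among 14 of 29214 genes. In edgeR 8 of the 51 had an unadjusted p under 0.05 there, against 7.85% of all genes. The counts were 2 for CamK against Grik and 4 for Grik against SST, against 6.5 and 3.86%.

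The genes most like each member across the 23 libraries were ranked among 12278 protein-coding genes by Pearson's r of log2 CPM. As the libraries fall into 3 populations, r mainly describes a shared order of the populations, and no test is given. Npy2r was closest to Grik4 (0.990), a glutamate receptor subunit gene used here as a CA3 marker, then Cpeb1 (0.989) and Cd109 (0.987). Npy1r was closest to Kcnip4 (0.988), Kalrn (0.985) and Mlip (0.985), and Npy5r to Plppr4 (0.988), Atp2b1 (0.987) and Dtwd1 (0.985). Sstr3 had the highest values, with Susd6, Otulinl and Cpne7 (0.996 each), and Sstr4 was closest to Spink8 (0.988), Lingo3 (0.987) and Tspan13 (0.985). The interneuron-high Sstr1 was closest to Cdh13, Tmem130 (0.980 each) and Nipal3 (0.979), and Oprm1 to Pdxk (0.989), Ppargc1a and Osbpl9 (0.988 each). Values were lower for Sstr2, with Tpt1 (0.955), Tm7sf3 (0.954) and Kcng1 (0.951), and for Oprl1, with Wdr6 (0.958), Bri3bp and Glb1 (0.953 each). Cckbr had no close match, the nearest being Gpr21 (0.880), Cemip (0.819) and Slc9a9 (0.804).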

How the data were processed

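The 23 libraries were made from polyA RNA, per the labels. The authors deposited 1 table of whole read counts, with genes by Ensembl ID in rows and libraries in columns. Per the submitters' processing notes, Trimmomatic and STAR were used and the build was GRCm38; neither names a version, an annotation release, a strand setting or an isolation method. Of 45706 gene IDs, 45143 matched GENCODE M21, from which positions and exon lengths were taken. The 4 summary rows that name no gene, 12.4 to 18.4% of reads, were left out. Chi-square tests put all 33 replicate pairs beyond sampling noise (8.27 to 198 per degree of freedom).

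Counts were tested in edgeR 4.0.16 (R 4.3.3): filterByExpr over 6 groups, TMM scaling, 1 robust quasi-likelihood fit of all libraries with 17 residual degrees of freedom, and Benjamini-Hochberg adjustment over 18823 genes per comparison at 0.05. The common biological coefficient of variation was 16.3%. CPM are counts per 1000000 reads after TMM scaling, and the SE is the log2 fold change divided by the square root of F. The function was tested on simulated data. Comparisons were labelled cKO against WT, differences of that effect, and populations against each other. Alternatives were other scaling and filters, DESeq2 1.42.0, limma-voom (limma 3.58.1), populations fitted alone, a replicate block, a non-neuronal covariate and leaving out each library. One excitatory marker is not reported here: the sums and shares leave it out, and so no marker shares are set beside the members' shares of the Grik level. The members and gene lists were chosen with earlier results of these data known. Named besides the 10 members are Khdrbs3, all ligands and related receptors, up to 3 genes per signalling list by absolute log2 fold change among those called between WT populations, and the 3 genes most correlated with each member (log2 CPM, prior count 2, mean CPM of at least 1, protein-coding).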

Additional observations from a re-analysis of the deposited data

Results flagged for a closer look

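In 6 of the 50 sets of 4 libraries examined (10 genes in the 5 groups of 4), 1 library stood apart from the other 3 by more than the 95% critical value of Dixon's gap test, where chance gives about 2.5. Sstr1 was at 29.998 CPM in SST WT replicate 5 and at 22.8 to 23.6 in the others. Sstr2 was at 5.59 CPM in CamK WT replicate 4, against 6.94 to 7.0, and at 10.4 CPM in Grik replicate 2 labelled cKO, against 9.16 to 9.27. Sstr4 was at 12.5 CPM in Grik replicate 1 labelled cKO, against 13.2 to 13.3, and Npy2r at 77.8 CPM in Grik replicate 2 labelled cKO, against 83.4 to 84.2. Cckbr was at 9.65 CPM in SST replicate 7 labelled cKO, against 7.0 to 7.07.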

How the results depend on the processing

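Each member called between populations kept its direction under all 8 alternatives and with each library left out, and 6 of 752 such values lost the call, those of Sstr3, Oprm1 and Cckbr given above. Alternatives gave 3 to 5 called members for CamK against Grik WT, 9 for both comparisons of WT with SST, 5 to 6, 10 and 9 to 10 in the libraries labelled cKO. Between labelled cKO and WT in CamK, DESeq2 called 1 member, and leaving out a library gave 0 to 1. For the difference of effects between CamK and Grik that range was also 0 to 1. In both, the 1 was Cckbr without CamK cKO replicate 5. Oprm1 had only 8 to 32 reads in each pyramidal library, which limits its precision there. With the non-neuronal covariate the called differences of CamK that moved by over 1.5 times in fold or log2 value were those given above and, in labelled cKO, Npy1r from Grik (1.52) and from SST (3.12) and Sstr2 from SST (2.92). The covariate differed between the populations and cannot be cleanly separated from them.

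Values that changed sign were all uncalled, and the cause was not tested. With the replicate number as a block, labelled cKO against WT gave 0.020 for Npy1r in Grik, -0.11 for Npy1r in SST, 0.077 for Npy2r in SST, 0.045 for Oprl1 in SST, 0.20 for Oprm1 in CamK, 0.025 for Oprm1 in SST and -0.066 for Sstr3 in SST, and CamK against Grik in labelled cKO gave -0.057 for Sstr1. Same-numbered libraries of the 2 genotypes had deviations correlated at only -0.10 to 0.13, with 2 shared numbers per population. No pairing by number was visible in them. Differently numbered libraries were not compared in this way, so a pairing is not excluded. The block made no other call differ but that of Cckbr given above. With the non-neuronal covariate, labelled cKO against WT gave -0.035 for Npy5r in CamK, -0.015 for Npy5r in Grik, 0.028 for Oprm1 in CamK and -0.0037 for Sstr2 in Grik, and CamK against Grik gave 0.47 in WT and 0.68 in labelled cKO for Sstr2. The covariate took Npy5r past the threshold between CamK and Grik labelled cKO (0.67, adjusted p = 0.0489).

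Leaving out 1 library gave these ranges for labelled cKO against WT: in CamK, -0.0072 to 0.10 for Npy2r, -0.20 to 0.18 for Oprm1, -0.12 to 0.017 for Sstr3 and -0.20 to 0.062 for Sstr4; in Grik, -0.029 to 0.066 for Npy2r, -0.014 to 0.082 for Npy5r, -0.0062 to 0.18 for Sstr2 and -0.0017 to 0.076 for Sstr3; in SST, -0.0022 to 0.28 for Npy1r, -0.32 to 0.013 for Npy5r, -0.071 to 0.043 for Oprl1, -0.26 to 0.014 for Oprm1, -0.51 to 0.17 for Sstr2 and -0.049 to 0.13 for Sstr3. Between CamK and Grik the ranges were -0.063 to 0.15 for Sstr1 in WT and -0.27 to 0.11 for Sstr2 in labelled cKO.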
